A study of Mus musculus with 36 samples.

Results

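Hippocampal RNA from mice given Cpd-60 was compared with hippocampal RNA from mice given CI-994. Both compounds are benzamide inhibitors of histone deacetylases (HDACs), the enzymes that remove acetyl groups from the tails of histones. The comparison took in the 6 arrays of the series labelled hippocampus with treatment Cpd-60 (3 pools) or CI-994 (3 pools), out of 36 arrays. Each array held RNA pooled from 2 adult male C57BL/6 mice. The study obtained mice from The Jackson Laboratory and Taconic Farms, and the labels do not say which pool came from which. The part of vendor in the differences was not tested. The mice had received 10 daily intraperitoneal injections, and tissue was taken 1 hour after the last. Cpd-60 was given at 45 mg/kg in 7.5 mL/kg and CI-994 at 10 mg/kg in 5 mL/kg. The differences below are therefore between 2 treatments as given, and compound, dose and volume cannot be told apart. The 3 vehicle pools (PEG-400 and saline at 45% each, with DMSO at 10%, in 7.5 mL/kg) and the 3 pools given SAHA, a hydroxamate HDAC inhibitor, at 25 mg/kg entered the fit for the spread between pools, and vehicle served as background. For Cpd-60 pool 2 the title and source gave mice of its own while another label field repeated the mice of pool 1. It was taken as a separate pool.

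Class I HDACs, among them HDAC1, HDAC2 and HDAC3, act as the catalytic subunits of corepressor complexes that are brought to DNA by transcription factors. Inhibitors raise histone acetylation, and the cell cycle inhibitor gene Cdkn1a is among the genes they are best known to induce. The glucocorticoid receptor, a steroid-activated transcription factor abundant in hippocampus, induces its own set of genes in neurons and glia.

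Raw probe intensities were quantile normalized and put on the log2 scale, on which 1 unit is a doubling. A probe was called different when its unadjusted limma p was under 0.05 and its fold at least 1.2. The study used the same fold, but with one-way analysis of variance and Tukey's HSD. That rule is stricter and called 236 probes here against 758, so the counts below are not comparable with the study's. The precision was limited by the number of arrays, and p-values measure the spread between pools only. Across the 6 arrays between 37.3% and 39.5% of probes were detected at p of at most 0.01. The tissue label was checked on marker genes. Fibcd1, a marker of CA1 pyramidal cells, had a mean log2 intensity of 10.45 against 7.34 in prefrontal cortex and 7.94 in nucleus accumbens, and the dentate gyrus factor Prox1 had 7.99 against 6.83 and 6.72. Zbtb20, Hpca and Dsp were also higher than in both other regions. Wfs1, another hippocampal marker checked, went the other way, at 8.58 against 8.76 in prefrontal cortex and 10.41 in nucleus accumbens. Neurod6 and Tdo2 were not detected. Striatal Drd1 was at 6.98 against 10.89 in nucleus accumbens. The arrays lay on 2 BeadChips, the first with Cpd-60 pools 1 and 2 and CI-994 pool 1, and the second with Cpd-60 pool 3 and CI-994 pools 2 and 3. Cpd-60 pool 3 correlated with the other Cpd-60 pools at 0.983, and these with each other at 0.993. CI-994 pool 2 correlated with the other CI-994 pools at 0.978 and 0.98, and these with each other at 0.99. Cpd-60 pool 3 correlated with CI-994 pools 1 and 3 at 0.99 and 0.994, above its values with its own group. CI-994 pool 2 correlated with Cpd-60 pools 1 and 2 at 0.987 and 0.986, again above its values with its own group. Cpd-60 pool 3 and CI-994 pool 2 correlated with each other at 0.978.

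Of 23275 probes tested, 390 were called higher in Cpd-60 than in CI-994 (1.68%) and 368 lower (1.58%), together 758 probes (3.26%) of 694 gene symbols. No probe passed an adjusted p of 0.05 by limma (1902, or 8.17%, had an unadjusted p under 0.05, 3.73% higher and 4.45% lower), and the smallest adjusted p was 0.0599. The differences were small, with a median fold of 1.26 among the called probes. Only 23 reached 1.5-fold, 20 of them higher in Cpd-60. The vehicle mean lay between the Cpd-60 and CI-994 means for 666 of the 758. The called probes were selected for a gap between those means, which by itself makes a vehicle mean between them more likely. No share over all probes tested was taken for comparison, so opposite changes from vehicle were not tested. In 484 of the 758 the Cpd-60 mean was farther from vehicle than the CI-994 mean, and in 274 the CI-994 mean was. The 3 Cpd-60 pools all lay beyond the 3 CI-994 pools for 493 of the called probes, which is 2.12% of those tested. Such a separation, called or not, was present in 12.5% of all probes tested. Without Cpd-60 pool 3 the called probes numbered 1928, and without CI-994 pool 2 they numbered 1563. With both left out there were 3449.

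The 12 genes with the largest called difference in each direction, all with separate pools, are described first. Cdkn1a, which encodes the cyclin-dependent kinase inhibitor p21, had the largest difference. Its log2 intensity was 7.84, 9.34 and 7.15 in the 3 Cpd-60 pools, 6.92, 6.87 and 6.90 in the CI-994 pools and 7.04, 7.02 and 7.09 in the vehicle pools. Every Cpd-60 pool stood above both other groups, but pool 2 stood far above the rest. The difference was 1.22 (SE 0.38, limma adjusted p = 0.409). Leaving out 1 pool at a time gave differences of 0.60 to 1.70. The 3 Cdkn1a probes were all called higher, by 1.22, 0.85 and 0.64. Lcn2, which encodes the iron-carrier protein lipocalin 2, differed by 1.11 (SE 0.47, limma adjusted p = 0.565). It rested more on the same pool, with 6.86, 9.22 and 6.71 in Cpd-60 against 6.55, 6.38 and 6.54 in CI-994. Without Cpd-60 pool 2 its difference was 0.30, and its call was lost without any 1 of the CI-994 pools, without SAHA pool 2 and with BeadChip as a block.

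Sgk1, a serum- and glucocorticoid-regulated kinase, was higher by 1.01 (SE 0.18, 95% interval 0.62 to 1.40, limma adjusted p = 0.152). It read 11.41, 11.21 and 10.59 in Cpd-60 and 9.99, 10.10 and 10.07 in CI-994, against 9.90, 10.28 and 10.35 in vehicle. The Cpd-60 pools were all above, and CI-994 overlapped vehicle. Within the first BeadChip the Sgk1 difference was 1.32 and within the second 0.50. Ybx3, which encodes a cold-shock domain nucleic acid binding protein, was higher by 0.91 (SE 0.25), with pool 2 again the highest of the Cpd-60 pools at 9.65, and the differences within the BeadChips were 1.38 and 0.24.

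Mobp, a structural gene of myelin, gave the difference with the smallest p of all probes (0.78, SE 0.09, limma adjusted p = 0.0599). This probe read 9.95, 9.83 and 9.89 in Cpd-60, 9.12, 9.10 and 9.11 in CI-994 and 9.15, 9.28 and 9.56 in vehicle. The pools of each treatment lay close together and far apart between treatments, and the difference was alike within both BeadChips (0.77 and 0.79). With BeadChip as a block its adjusted p was 0.0296. Of 5 Mobp probes tested, 2 were called. The second of them differed by 0.40, which was no longer called without Cpd-60 pool 1, Cpd-60 pool 2 (0.35) or CI-994 pool 3. The other 3 had differences of 0.11, 0.18 and 0.08. The probes of the gene thus differed in size.

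The remaining genes of the upper 12 were 2310051E17Rik (0.71), Id2 (0.64), Tsc22d3 (0.64), Nme7 (0.63), Agxt2l1 (0.62), Spsb1 (0.59) and Meg3 (0.56). Id2 encodes an inhibitor of helix-loop-helix transcription factors and Meg3 is an imprinted long noncoding RNA. For Meg3 the 3 CI-994 pools read 7.74, 7.46 and 7.59, under vehicle at 7.93 ± 0.06 (SD, n = 3), while Cpd-60 read 8.27, 8.11 and 8.09. Part of the Meg3 difference thus lay on the CI-994 side, which was 0.33 below vehicle against 0.23 above it for Cpd-60. The genes with several probes were uneven. For Nme7 2 of 7 probes were called higher, for Meg3 1 of 3 and for Id2 1 of 2, with the other Id2 probe at 0.00441. The Nme7 probes differed in sign, with another at −0.21 (SE 0.09), short of 1.2-fold, and the brightest at 0.09. Nme7 lost its call without CI-994 pool 2 or pool 3.

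Echdc2, which encodes an enoyl-CoA hydratase domain protein, was the lowest in Cpd-60 relative to CI-994 (−0.71, SE 0.09, limma adjusted p = 0.0675). It read 8.13, 8.26 and 8.26 in Cpd-60 and 8.89, 9.16 and 8.73 in CI-994, with vehicle at 8.33, 8.34 and 8.45. Here the CI-994 pools stood apart, 0.55 above vehicle (SE in the same fit 0.09), and the Cpd-60 pools lay 0.16 below it. All 3 Echdc2 probes were called lower, and the difference was −0.70 and −0.69 within the BeadChips.

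Rac3, a small GTPase that acts on the actin cytoskeleton, was lower by 0.51 on the log2 scale (difference −0.51, SE 0.09, limma adjusted p = 0.156). Its Cpd-60 pools read 7.29, 7.11 and 7.10 and its CI-994 pools 7.70, 7.68 and 7.64, near vehicle at 7.81 ± 0.10 (SD, n = 3). Tmem160 (−0.50), 4930511J11Rik (−0.57), the kinase gene Map2k2 (−0.58), the peroxidase-family gene Gpx8 (−0.50) and the G protein subunit gene Gng2 (−0.49) were also among the lower 12. For Tmem160 and Rac3 both probes tested were called, but for Gng2, Map2k2 and Gpx8 the second probe was not, at 0.02, −0.10 and −0.13. The other 5 of the lower 12 were histone genes, Hist1h2ad, Hist1h2ai, Hist1h2ak, Hist1h2ao and Hist1h2ah.

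**Figure D1:**
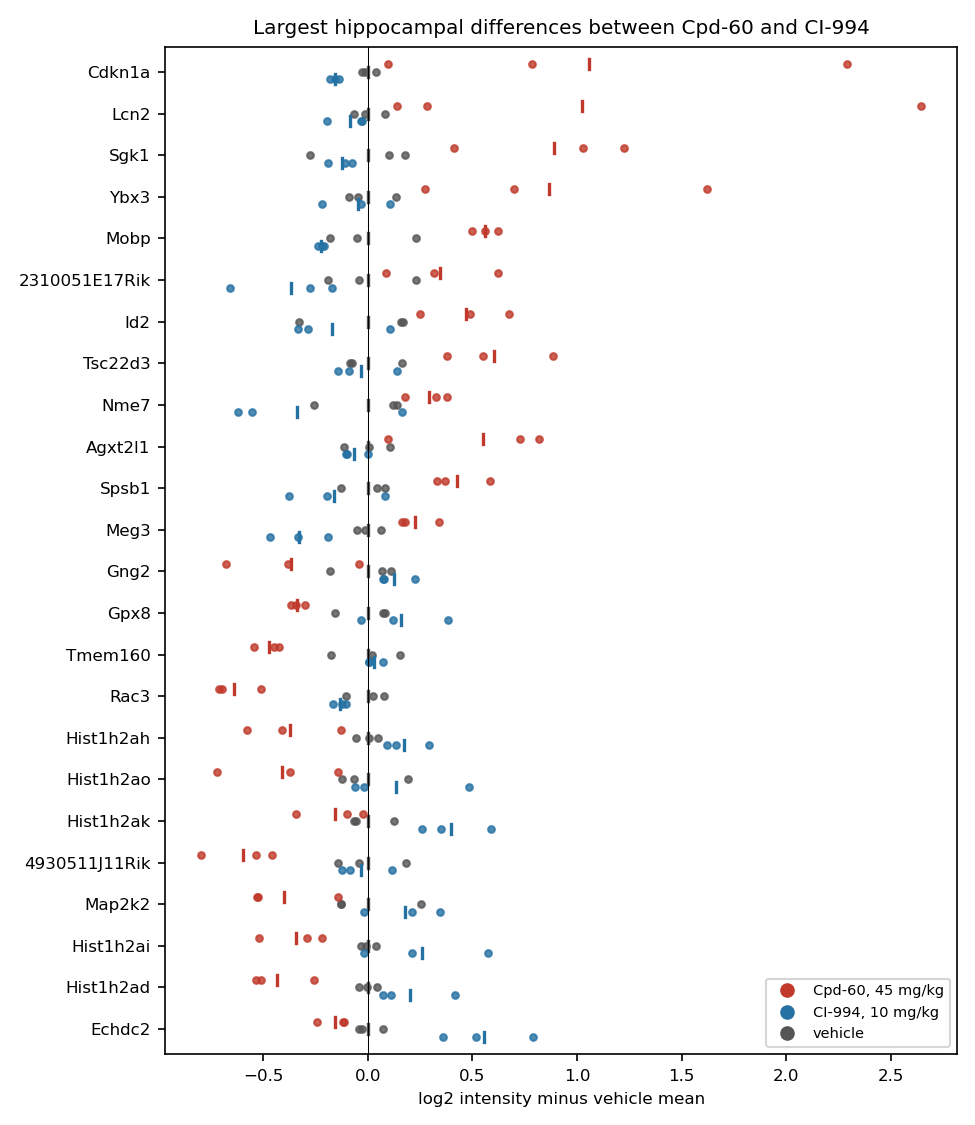
Log2 intensity minus the vehicle mean for the 12 genes with the largest called difference in each direction. Points are pools of 2 mice and short bars are means of 3 pools, with Cpd-60 in red, CI-994 in blue and vehicle in gray. For Cdkn1a, Lcn2 and Ybx3 1 Cpd-60 pool lies far to the right, while for Mobp, Tmem160 and Rac3 the 3 Cpd-60 pools lie close together, and for Echdc2 the CI-994 pools lie to the right of vehicle.

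Genes induced by glucocorticoids were higher in the Cpd-60 pools. Of 29 genes on the list, 28 were tested, and 18 were called higher and none lower, against 1.68% and 1.58% of all probes tested. The median difference over the 28 genes was 0.38, against −0.00429 over all probes. The list had a median of 0.321 above vehicle with Cpd-60 and of −0.016 with CI-994. Of the 28 genes tested, 16 were called higher in Cpd-60 than in vehicle, and none was called different between CI-994 and vehicle in either direction. Over all probes tested 1.53% and 0.67% were called in those comparisons, both directions together. They share the Cpd-60 and CI-994 pools with the main comparison and add no independent evidence. All 3 Cpd-60 pools lay above all 3 CI-994 pools for 13 of the 28 genes, against 5.68% of all probes. The list shares 5 genes with those the study named from these arrays (Sgk1, Tsc22d3, Agxt2l1, Mfsd2 and Sult1a1), so it is not independent evidence of its direction. Of the other 23 genes tested, 13 were called higher. These were also chosen with earlier results of these data known and include Cdkn1a and Lcn2, so they are not independent evidence either.

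Direct targets of the glucocorticoid receptor came first. Fkbp5, a chaperone partner that lowers the affinity of the receptor for its hormone, was higher by 0.43 (SE 0.12, limma adjusted p = 0.386). Fkbp5 read 8.14, 8.14 and 7.81 in Cpd-60, 7.57, 7.50 and 7.72 in CI-994 and 7.82, 7.53 and 7.68 in vehicle. Cpd-60 pools 1 and 2 lay above all others, and pool 3 lay among the vehicle pools. Tsc22d3, which encodes the leucine zipper protein GILZ, was higher on both of its probes, by 0.64 and 0.62. On its brighter probe the Cpd-60 pools read 9.93, 10.03 and 9.31 and the CI-994 pools 9.11, 9.09 and 9.21. Klf9, a Krüppel-like transcription factor, differed by 0.44, of which 0.18 lay above vehicle in Cpd-60 and 0.26 below vehicle in CI-994. Zbtb16, a zinc finger repressor, differed by 0.27 and was no longer called without Cpd-60 pool 2 (0.19), CI-994 pool 1 or CI-994 pool 3, or with BeadChip as a block. Per1, a clock gene and receptor target, had a difference of 0.37 (SE 0.19) that was not called.

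Regulators of signaling and growth were also on the list. Nfkbia, the inhibitor of NF-kB, differed by 0.64 (SE 0.22) and read 8.68, 8.57 and 7.66 in Cpd-60 against 7.70, 7.86 and 7.44 in CI-994. Its pools overlapped, since Cpd-60 pool 3 was within the CI-994 range, and it was no longer called without Cpd-60 pool 1, Cpd-60 pool 2 (0.50) or CI-994 pool 3. Ddit4, an inhibitor of mTOR complex 1, differed by 0.54 (SE 0.17), and its pools overlapped in the same manner. Among genes of glia and metabolism, Gjb6, a connexin of astrocytes, differed by 0.50, the metallothionein genes Mt2 and Mt1 by 0.49 and 0.27, the lipid droplet gene S3-12 (Plin4) by 0.45 and the sulfotransferase gene Sult1a1 by 0.32. Without Cpd-60 pool 2 Mt2 (0.26), Mt1 (0.19) and Sult1a1 (0.26) were no longer called, and within the second BeadChip Mt2 and Mt1 were at −0.13 and −0.0573. Mt2 and Mt1 also lost their call without Cpd-60 pool 1 or CI-994 pool 1, Mt1 without CI-994 pool 3, and Sult1a1 without CI-994 pool 2. Agxt2l1, an astrocyte phosphoethanolamine-lyase gene, differed by 0.62. Mfsd2, a lipid transporter of the blood-brain barrier, differed by 0.49. The genes that were not called included the phosphatase gene Dusp1 (0.11), the kinase gene Pdk4 (0.05), Bcl6 (0.05), Cebpd (−0.01) and Hif3a (−0.12).

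The size of these differences varied among the Cpd-60 pools. Cpd-60 pool 3 was the lowest of the 3 Cpd-60 pools for 17 of the 18 called genes, and pool 2 the highest for 14. The list's median was 0.555 within the first BeadChip, where 26 of 28 genes were higher and 19 called, against 14.9% of all probes called in either direction there. Within the second BeadChip, which held Cpd-60 pool 3, the median was 0.148, with 24 of 28 genes higher and 2 called, against 2.5% of all probes (Cpd-60 had 1 pool in that fit and CI-994 1 pool in the other, each assumed to vary like the other groups). Pool and BeadChip cannot be told apart for Cpd-60 pool 3. In the fit of all 12 hippocampus arrays with BeadChip as a block, the list's median was 0.343 and 15 genes were called higher, against 2.75% of all probes in either direction. Without Cpd-60 pool 2 the number called was 12, against 2.3% of all probes, and with Cpd-60 pool 3 and CI-994 pool 2 left out it was 20, against 14.8%. By the methods' analysis of variance with Tukey's HSD 6 of the genes passed.

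**Figure D2:**
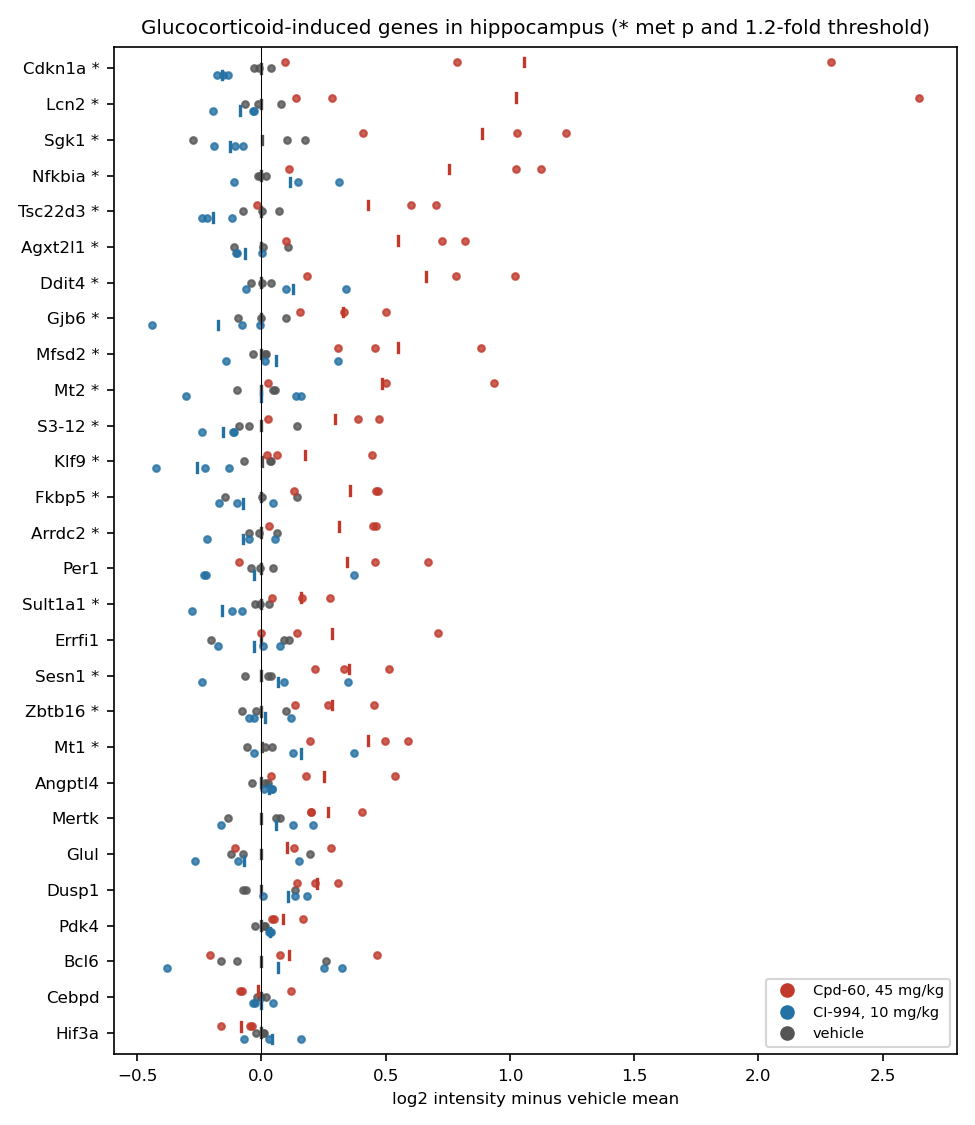
Log2 intensity minus the vehicle mean for the 28 tested genes of the glucocorticoid list, ordered by the difference between Cpd-60 and CI-994. Points are pools of 2 mice and bars are means of 3 pools; an asterisk marks the 18 genes with an unadjusted p under 0.05 and a fold of at least 1.2. In the upper rows 2 Cpd-60 pools lie well above vehicle and the third nearer to it, while the CI-994 pools scatter around vehicle.

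The promoters of these genes were read for the glucocorticoid response element, the DNA motif the receptor binds as a dimer. Its half-site was searched as AGAACA or TGTTCT on both strands in the 250 bases before each start site, from RefSeq sequences of the mouse build GRCm38.p6. It was found in 4 of the 25 tested genes that have a promoter in the table (16%) and in 18.2% of all 27025 genes. The full palindrome, AGAACA followed after any 3 bases by TGTTCT, was found in 3 of 32851 promoters. 1 of these lies before a start site of Sgk1, the gene with the third largest called difference, at chr10:21993640-21993889 on the plus strand. It is shown because the palindrome is intact there, and capitals mark the half-sites.
Sgk1: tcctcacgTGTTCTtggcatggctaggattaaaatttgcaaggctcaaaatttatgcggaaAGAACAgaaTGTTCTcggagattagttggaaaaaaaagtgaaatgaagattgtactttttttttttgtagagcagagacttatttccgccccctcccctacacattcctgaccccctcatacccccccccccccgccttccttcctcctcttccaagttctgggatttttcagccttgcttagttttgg
The match is a description of the letters, and receptor binding was not measured. Sgk1 has other start sites in the table, and which of their transcripts the array probe reads was not examined.

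H2A and H2B genes of histone cluster 1 were lower in the Cpd-60 pools. These genes encode core histones made mainly during DNA replication, and their mRNAs mostly end in a stem-loop in place of a poly(A) tail. The family was set apart after its values had been seen, since 5 of the 12 lowest genes belonged to it. Of 26 probes tested from the H2A and H2B genes of the cluster, 19 were called lower and none higher, against 1.58% and 1.68% of all probes tested. The median difference was −0.378. In 21 of the 26 the 3 Cpd-60 pools all lay below the 3 CI-994 pools, a position that 6.86% of all probes tested had. Many of these genes are near-identical in their coding parts, so that a probe may read more than 1 of them, and the probes do not count as separate genes.

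Hist1h2ad had the largest histone difference (−0.64, SE 0.10, 95% interval −0.86 to −0.41, limma adjusted p = 0.117). It read 7.63, 7.61 and 7.89 in Cpd-60, 8.26, 8.56 and 8.22 in CI-994 and 8.14, 8.10 and 8.19 in vehicle. The 3 groups did not overlap, with vehicle between the treatments. Hist1h2ak read 7.93, 7.69 and 8.01 in Cpd-60 against 8.38, 8.62 and 8.29 in CI-994, and its larger departure from vehicle was in CI-994 (0.40, against −0.16 in Cpd-60). Among the H2B genes Hist1h2bh (−0.44), Hist1h2be (−0.43) and Hist1h2bf (−0.41) had the largest differences.

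In the other histone families no probe met the threshold. None of 10 H3 probes, 13 H4 probes and 3 H1 probes was called in either direction, and their medians were −0.023, −0.0751 and 0.132. Hist1h1c (0.21) and Hist1h3h (0.26) had higher values in Cpd-60, short of 1.2-fold. H2A genes outside cluster 1 were mixed, with 1 of 2 Hist2h2ac probes called lower (−0.41) and Hist3h2a at 0.03. H3f3b, which encodes the replication-independent variant H3.3 and is polyadenylated, was called higher (0.32, SE 0.12), but not without Cpd-60 pool 2 (0.19) or CI-994 pool 2.

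The size of the histone differences also varied among the Cpd-60 pools. Cpd-60 pool 3 was the nearest to CI-994 for all 19 called probes and pool 2 the farthest for 15. Without Cpd-60 pool 2 the number called was 15, with a median of −0.287. With BeadChip as a block it was 17, with a median of −0.331, against 2.75% of all probes called in either direction. Within the first BeadChip 24 of the 26 probes were lower in Cpd-60 with a median of −0.479 and 21 calls, against 14.9% of all probes called there in either direction. Within the second 22 were lower with a median of −0.213 and 4 calls, against 2.5%. Of the 26 probes tested, 15 were called lower in Cpd-60 than in vehicle and 1 was called higher in CI-994 than in vehicle, comparisons that share these pools. By the methods' analysis of variance with Tukey's HSD 10 of the probes passed.

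**Figure D3:**
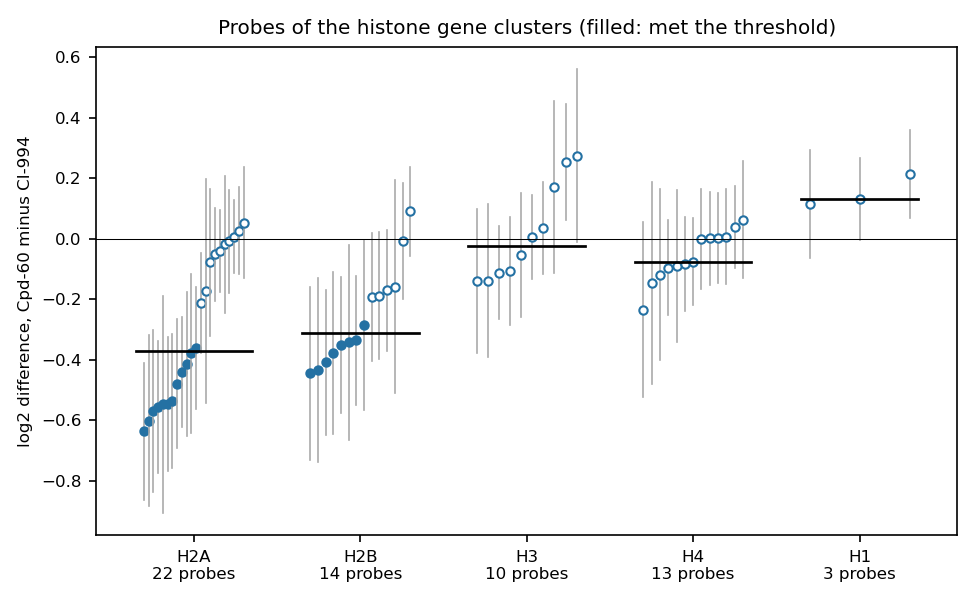
Log2 difference between Cpd-60 and CI-994 for every tested probe of the histone gene clusters by family, with 95% intervals as gray lines and the family median as a black bar. Filled points were called, 12 of 22 in H2A, 8 of 14 in H2B and none in H3, H4 and H1.

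H2A and H2B genes of the cluster often lie head to head and share the DNA between their start sites. The stretches between the starts of 3 such pairs are shown because both genes of each pair were on the array and the H2A gene of each was among the lowest genes. They come from RefSeq on GRCm38.p6 and are written 5′ to 3′ on the plus strand, and capitals mark the CCAAT box (CCAAT or, on the other strand, ATTGG), the site bound by NF-Y. The pair of Hist1h2ad (H2ac7) and Hist1h2bf (H2bc7) lies at chr13:23574208-23574380, that of Hist1h2bk (H2bc12) and Hist1h2ah (H2ac12) at chr13:22035644-22035820 and that of Hist1h2bn (H2bc15) and Hist1h2ak (H2ac15) at chr13:21753913-21754075.
Hist1h2ad and Hist1h2bf: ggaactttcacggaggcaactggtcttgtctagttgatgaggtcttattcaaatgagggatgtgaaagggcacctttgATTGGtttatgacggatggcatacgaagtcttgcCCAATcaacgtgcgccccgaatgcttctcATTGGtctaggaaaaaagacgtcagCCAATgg
Hist1h2bk and Hist1h2ah: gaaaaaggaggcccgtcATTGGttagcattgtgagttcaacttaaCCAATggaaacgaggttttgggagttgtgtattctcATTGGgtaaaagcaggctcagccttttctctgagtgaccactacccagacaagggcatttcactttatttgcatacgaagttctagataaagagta
Hist1h2bn and Hist1h2ak: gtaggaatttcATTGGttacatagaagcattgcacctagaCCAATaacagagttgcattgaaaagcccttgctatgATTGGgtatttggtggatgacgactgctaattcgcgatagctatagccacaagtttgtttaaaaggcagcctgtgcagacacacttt
In the 250 bases before their starts, all 17 tested H2A and H2B genes of the cluster with a promoter in the table hold this motif on either strand, as do 7 of 14 tested H3 and H4 genes and 37.5% of all genes. Within the pairs the partners differed in size. The pairs were chosen by their H2A gene, which by itself makes a smaller difference in the H2B partner more likely. Hist1h2ad had differences of −0.64 and −0.57 on 2 probes and its partner Hist1h2bf −0.41, which was called. Hist1h2ah had a difference of −0.55 and its partner Hist1h2bk −0.35 and −0.17 on 2 probes. Hist1h2ak had −0.56 and its partner Hist1h2bn −0.19, which was not called.

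Genes known for induction by HDAC inhibitors were a smaller group. Of 20 tested, 5 were called higher and none lower, against 1.68% and 1.58% of all probes, with a median of 0.101. 4 of the 5 (Cdkn1a, Mt2, Klf9 and Mt1) were also on the glucocorticoid list. The fifth, Txnip, which encodes a thioredoxin-binding protein, differed by 0.41 (SE 0.09, limma adjusted p = 0.252). Txnip read 8.24, 8.47 and 8.08 in Cpd-60 and 7.84, 7.76 and 7.97 in CI-994. Gadd45a (0.01), Gadd45b (−0.03), H1f0 (−0.04) and Gsn (0.04) had differences near 0. The genes of the HDACs themselves and their partners gave 1 call of 17 for class I and its corepressors, the histone-binding subunit gene Rbbp4 (0.31, but not called without Cpd-60 pool 2, at 0.24, or CI-994 pool 2), and none of 8 for class II and IV with Mef2.

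Genes of translation and respiration gave few calls, all lower in Cpd-60. Of 33 cytosolic ribosomal protein genes 30 had a negative difference, with a median of −0.129, and 4 were called lower (Rps19, Rpl18, Rps9 and Rps13) and none higher, against 1.58% and 1.68% of all probes. The last 3 each lost the call when certain single Cpd-60 or CI-994 pools were left out, and Rps9 also with BeadChip as a block. Rps19 read 11.92, 11.83 and 12.10 in Cpd-60 and 12.37, 12.35 and 12.24 in CI-994. Of 41 oxidative phosphorylation genes 2 were called lower and none higher, with a median of −0.038. These were the complex III subunit gene Uqcrh (−0.37, SE 0.07, limma adjusted p = 0.152) and the complex IV subunit gene Cox6b1 (−0.30). Uqcrh read 12.01, 11.82 and 11.88 in Cpd-60 and 12.28, 12.27 and 12.27 in CI-994, so that the groups did not overlap. The proteasome genes had no call among 26.

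Neuronal lists gave few calls each, and the called shares varied by list. Over all probes tested 3.26% were called, near the 3.85% of glutamate receptor and scaffold genes and the 4.17% of vesicle genes. The called shares were 5.56% of immediate early, 8.33% of potassium channel and 11.1% of clock genes. They were 18.2% of 11 dentate gyrus granule cell and 14.3% of 14 interneuron and neuropeptide genes. For 10 CA2 and CA3 markers and 11 pyramidal cell genes they were 10% and 9.09%. Gad1, which makes GABA from glutamate, was higher by 0.37 (SE 0.07, limma adjusted p = 0.166), with 11.19, 11.25 and 11.26 in Cpd-60 and 10.85, 10.87 and 10.85 in CI-994. Vehicle lay between, at 11.07. The potassium channel genes Kcnma1 (0.42) and Kcna1 (0.32) were called among 24, although Kcna1 was not without any 1 of Cpd-60 pools 2 and 3 and CI-994 pools 1 and 2. So were the vesicle protein gene Sv2a (0.41) among 24 and the AMPA receptor subunit gene Gria3 (0.38) among 26 glutamate receptor and scaffold genes. Gria3 was no longer called with BeadChip as a block (0.33) or without Cpd-60 pool 3 or CI-994 pool 2, and its differences within the BeadChips were 0.07 and 0.66. Cacng5, an AMPA receptor auxiliary subunit gene of CA2 and among those named in the study, was called on 1 of 3 probes (0.44). Of 18 immediate early genes tested, 1 was called, the nuclear receptor gene Nr4a2 (−0.34), which was not called without Cpd-60 pool 1, Cpd-60 pool 2 (−0.23) or CI-994 pool 3. Of 18 clock genes, Ciart (0.53), a repressor of the clock, and Bhlhe40 (0.37) were called higher. Bhlhe40 was at 9.22, 9.25 and 9.24 in Cpd-60 and 8.87, 8.67 and 9.08 in CI-994, against 9.20 in vehicle, so its difference lay on the CI-994 side. None of the 9 tested CA1 marker genes and none of 14 neurotrophin genes was called.

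Genes of glia, vessels and blood were read as a check on tissue make-up. Called were 14.3% of astrocyte, 17.6% of oligodendrocyte and myelin, 28.6% of endothelial and 40% of blood genes (2 of 5), against 3.26% of all probes tested. In bulk tissue a change in the number of cells of a type cannot be told apart from a change in RNA per cell. Astrocyte Gfap differed by 0.74 but overlapped, with 11.26, 11.36 and 10.53 in Cpd-60 and 10.53, 10.79 and 9.61 in CI-994, and 2 of 14 astrocyte genes were called. With 1 pool left out the Gfap difference was 0.39 to 1.00, and it was not called without Cpd-60 pool 1, Cpd-60 pool 2 (0.59) or CI-994 pool 3. Of 17 oligodendrocyte and myelin genes 12 had a positive difference, with a median of 0.0842. Mobp and the lineage factor gene Olig1 (0.27) were called higher and Qdpr (−0.28), which was on this list and is among the genes named in the study, lower. With BeadChip as a block neither Olig1 nor Qdpr was called, nor was either without CI-994 pool 2. Qdpr was also not called without Cpd-60 pool 2 (−0.26). The summed intensity of the list ran from 33189 to 35326 in Cpd-60, from 29149 to 32273 in CI-994 and from 32236 to 35899 in vehicle. Its part in the Mobp difference was not tested. None of 15 microglia genes was called. Among 14 endothelial genes Mfsd2 and the glucose transporter gene Slc2a1 (0.45) were called higher and Itm2a (−0.48) and Cldn5 (−0.36) lower. Cldn5 was no longer called with BeadChip as a block (−0.30) or with any 1 of 6 pools left out (Cpd-60 1 and 2, CI-994 1 and 3, SAHA 2 and 3), and ranged from −0.54 to −0.16. Slc2a1 was not called without CI-994 pool 2 (0.27). Itm2a read 8.42, 8.29 and 8.59 in Cpd-60 and 8.90, 8.86 and 8.99 in CI-994.

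The hemoglobin gene Hba-a1 was 0.54 higher in Cpd-60 than in CI-994 (SE 0.18, limma adjusted p = 0.437). It read 11.66, 11.72 and 11.32 in Cpd-60, 11.05, 11.11 and 10.92 in CI-994 and 11.84, 11.85 and 11.75 in vehicle. All treated pools lay below vehicle, CI-994 by 0.78. Hbb-b1, another hemoglobin gene, was called higher by 0.38, but not without Cpd-60 pool 2 (0.33). The summed linear intensity of the 5 tested blood genes ran from 12742 to 14144 in Cpd-60, from 11172 to 12604 in CI-994 and from 14069 to 15668 in vehicle. Choroid plexus genes varied between pools of 1 treatment. Ttr, the carrier of thyroid hormone made there, read 12.86, 12.89 and 12.24 in Cpd-60 and 13.32, 9.91 and 11.02 in CI-994, and the summed intensity of 11 choroid plexus genes ran from 2916 to 14494 over the CI-994 pools and from 7716 to 11548 over the Cpd-60 pools. None of the 11 genes was called. The part of these tissue genes in the other differences was not tested.

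**Figure D4:**
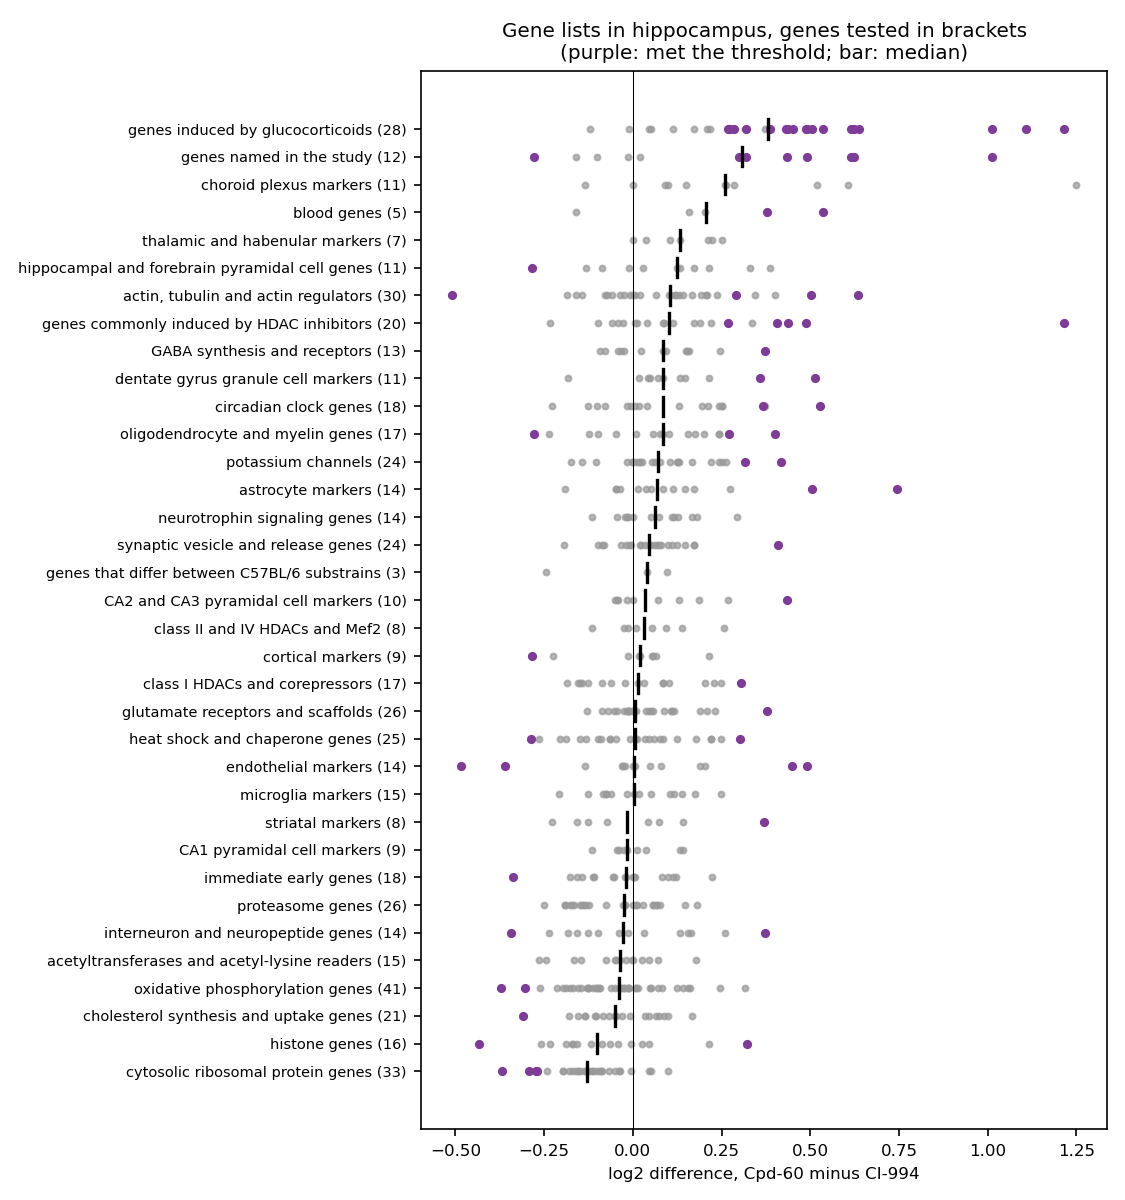
Log2 difference between Cpd-60 and CI-994 for the tested genes of 35 lists, 1 point per gene, ordered by the list median (black bar). Purple points were called. The glucocorticoid list lies farthest to the right with 18 of 28 genes called, the ribosomal list farthest to the left, and 9 lists have no called gene.

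The same contrast was taken in prefrontal cortex and nucleus accumbens to ask whether the hippocampal differences were larger there or here. Each pool gave all 3 regions, so the regions share their animals and are no separate replicates. Of 19447 probes measured in all 3 regions, 426 (2.19%) had an unadjusted p under 0.05 for hippocampus against the mean of the other regions. None passed after adjustment by limma (smallest adjusted p 0.884). No difference was therefore shown to be particular to hippocampus.

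The glucocorticoid list had a median of 0.38 in hippocampus, 0.327 in prefrontal cortex and 0.291 in nucleus accumbens, and 16 and 14 of its 28 genes were called higher in the latter regions. Over all probes 2% and 3.55% were called there in either direction. Sgk1 differed by 0.64 in prefrontal cortex (95% interval 0.20 to 1.07) and 0.80 in nucleus accumbens (0.36 to 1.24). Mobp, on the probe with the smallest p in hippocampus, differed by 0.56 (0.21 to 0.92) and 0.92 (0.57 to 1.28). The other Mobp probe called in hippocampus was at −0.06 (−0.71 to 0.59) and 0.11 (−0.54 to 0.76). Echdc2 was lower by values of −0.60 (−0.83 to −0.36) and −0.29 (−0.53 to −0.05). The 23 cluster 1 H2A and H2B probes measured in all regions had negative differences in each, with medians of −0.409 in hippocampus, −0.221 in prefrontal cortex and −0.186 in nucleus accumbens. Of these, 4 and 5 were called lower in the other regions.

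Some genes had smaller or opposite values outside hippocampus, but no region difference passed adjustment. Id2 differed by 0.64 in hippocampus, by 0.04 in prefrontal cortex (−0.41 to 0.50) and by −0.19 in nucleus accumbens (−0.64 to 0.27). The Id2 difference in hippocampus was larger by 0.71 (SE 0.27, limma adjusted p = 1.00) than the mean of the other regions. Meg3 differed by 0.56 (with an interval in the joint fit that included 0), 0.15 and −0.64, a region difference of 0.80 (SE 0.45). Uqcrh differed by −0.37, −0.06 and −0.10, a region difference of −0.29 (SE 0.10, limma adjusted p = 1.00), and Rac3 by −0.51, −0.31 and −0.04, a region difference of −0.33 (SE 0.14).

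**Figure D5:**
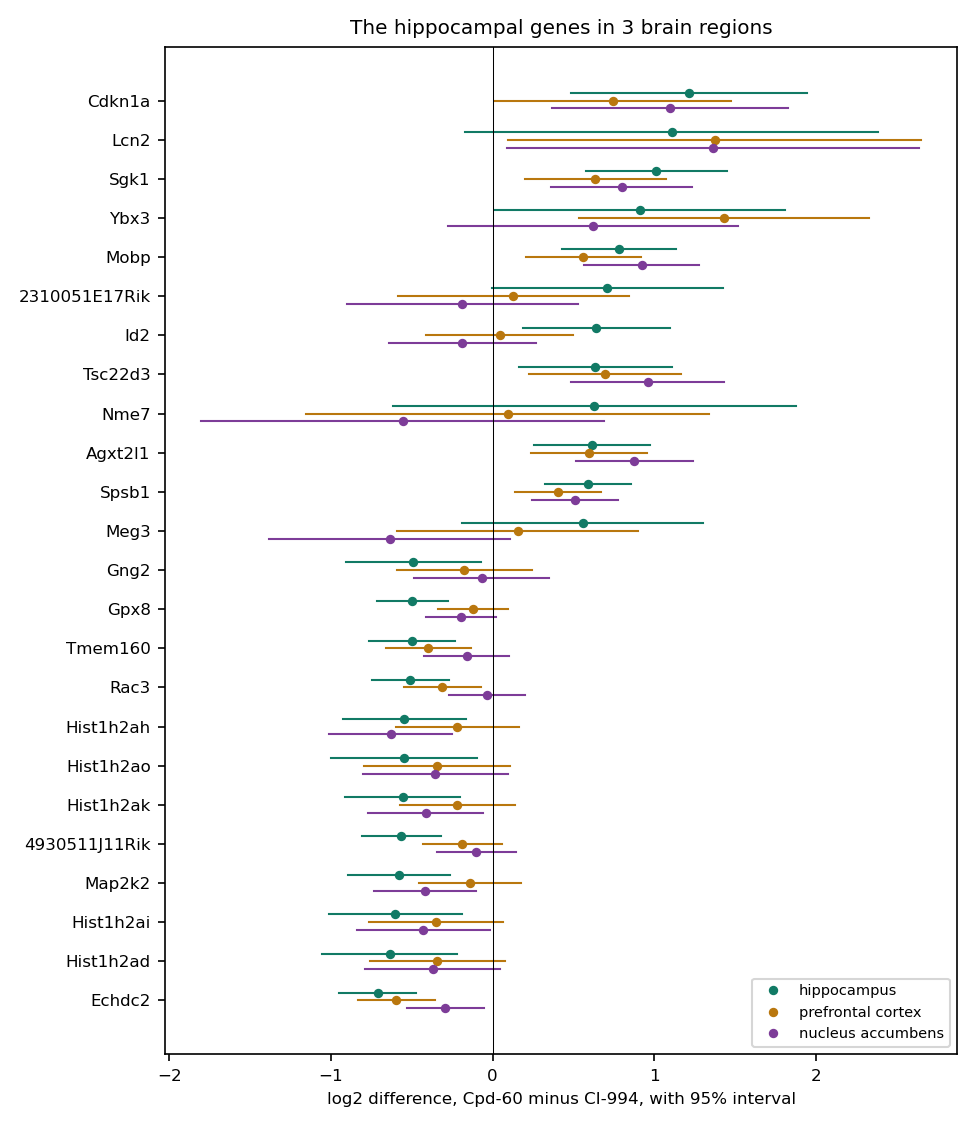
Log2 difference between Cpd-60 and CI-994 in hippocampus, prefrontal cortex and nucleus accumbens for the 12 genes with the largest hippocampal difference in each direction, with 95% intervals from the joint fit of 36 arrays. The intervals of the 3 regions overlap for Cdkn1a, Sgk1, Mobp, Tsc22d3, Agxt2l1 and Id2, and those of Id2 include 0 outside hippocampus.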

How the data were processed

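RNA pooled from 2 mice was hybridised to Illumina MouseWG-6 BeadChips. The authors deposited raw probe intensity and a detection p-value for each of 45281 probes and 36 arrays, without normalization. They used GeneSpring 11.5.1 for their own normalization and tests. Here the intensity was quantile normalized over the 36 arrays, floored at 1 and put on the log2 scale (R 4.3.3, limma 3.58.1). Probes with detection p of at most 0.2 in all 3 pools of any hippocampus group were kept. limma was fitted to the 12 hippocampus arrays with 4 group means, and p-values were adjusted by Benjamini-Hochberg over the 23275 probes tested. For the regions all 36 arrays were fitted with the pool as a random block (consensus correlation −0.00497). A gene with several probes was read from the one with the highest mean signal, except among the 12 largest differences, where the called probe was used. Named genes were the 12 largest called differences in each direction with separate pools, the genes named in the study, and the called and up to 4 brightest other members of each list. Members and lists were chosen with earlier results of these data known. The fits were tested on simulated data. Alternatives were another normalization and filter, smaller sets of arrays, blocks, single BeadChips, the methods' test, and each pool left out. Promoter sequences came from RefSeq (GRCm38.p6) through current symbols and synonyms. The array table names no genome build, so no probe positions are given. 1 gene that the naming rule selected is not reported here.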

Additional observations from a re-analysis of the deposited data

How the results depend on the processing

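The number of called probes depended on the processing more than the direction of the named genes did. Against 758 called probes (390 higher and 368 lower) and 1902 at an unadjusted p under 0.05, neqc normalization called 1738 (817 and 921), with 692 of the 758 among them. BeadChip as a block shared 543 of the 758. The methods' analysis of variance with Tukey's HSD called 236 (91 and 145), all among the 758, with 523 before the fold threshold. The first BeadChip alone gave 3472 (1719 and 1753), with 4545 at an unadjusted p under 0.05 and 783 at an adjusted p under 0.05. The second gave 581, with 196 of the 758 among them and 36 of the 758 turned in sign, and 592 at an unadjusted p under 0.05. With Cpd-60 pool 3 and CI-994 pool 2 both left out, an alternative chosen after seeing the data, there were 3449 (1649 and 1800), with 4673 unadjusted and 1599 adjusted. The cause was not tested. Leaving out 1 pool at a time gave 535 to 1928 called probes (268 to 926 higher, 267 to 1002 lower), 1289 to 3079 at an unadjusted p and 0 to 24 at an adjusted p. The 24 were without Cpd-60 pool 3. A single probe passed the adjusted threshold with a detection p of at most 0.01 (Mobp, 1), with BeadChip as a block (Mobp, 1), without 1 vehicle pool (Mobp) and without CI-994 pool 3 (Echdc2).

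The replicate numbers were not taken to pair the pools, since same-numbered Cpd-60 and CI-994 pools correlated at −0.035, 0.36 and 0.66. A replicate block gave 970 called probes (521 higher, 449 lower), 2500 at an unadjusted p and 1 at an adjusted p (Mobp). For the region test the replicate block gave 436 against 426.

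The glucocorticoid genes called higher numbered 12 to 19 with 1 pool left out, 2 within the second BeadChip and 6 by the methods' test. The cluster 1 histone probes called lower numbered 15 to 19, 4 and 10. The region test gave 1383 probes at an unadjusted p without a detection filter and 279 to 1234 with 1 pool left out (930 without CI-994 pool 1), and none at an adjusted p in any of these.

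Among the named genes that were called, those that turned in sign within 1 BeadChip were Cldn5 (0.00167), Mt1 (−0.0573) and Mt2 (−0.13) on the second. Of the 78 named probes called, 20 were not called without Cpd-60 pool 2. Genes not called in the full set were called in the opposite direction for Fibcd1 (0.42) on the second, for Kcnab2 (−0.63) and Ttr (−0.44) on the first, and for Kcnab2 (−0.75) and Vgf (0.33) with both doubted pools left out. Elsewhere 247 of the values of named genes fell short of the call and 143 newly met it. With 3 pools a group, differences under about 0.179 on the log2 scale, the median distance from the value to its 95% limits, were not resolved.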
